A study of Rattus norvegicus with 12 samples.

Results

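The genes described here are 9 members of SMAD and bone morphogenetic protein (BMP)-Id signalling, Tgfb2, Smad1, Smad3, Smad6, Smad7, Id1, Id2, Id3 and Tgfbi, out of 14506 genes measured. They were chosen by their gene symbols on the array platform, with earlier results of these data known. Their counts are therefore given beside those of all genes without a test of the set. Each had a single probe set, and the mean of every one of the 9 over all arrays lay above that of the median gene. They were measured in cardiac myocytes isolated from neonatal Sprague Dawley rats and grown in primary culture. Cells were transfected with a non-silencing siRNA (NS) or with an siRNA against p300 (p300kd), the acetyltransferase and transcriptional coactivator encoded by Ep300, and then received 1 µM doxorubicin (Dox), an anthracycline cancer drug that damages DNA and is toxic to the heart, for 0 or 8 h. This gave 4 groups of 3 arrays, written NS 0 h, NS 8 h, p300kd 0 h and p300kd 8 h. Arrays of the same replicate number are called an experiment here, which gives 3 experiments across the 4 groups. The labels number the replicates but do not state that equal numbers belong together. The pairing was taken from these numbers and checked by likeness between the arrays. All groups shared 0.1 mM bromodeoxyuridine against fibroblast growth, a serum-free period of 48 h before the drug, and a stated purity above 90% myocytes. The untreated cultures were all taken at 0 h, so drug and time in the 8 h cultures cannot be told apart.

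Signals of the TGF-beta family reach the nucleus through SMAD proteins. A ligand dimer, such as one of TGF-beta 2, brings together type I and type II receptor kinases, which phosphorylate the receptor-regulated SMADs: Smad2 and Smad3 on the TGF-beta and activin branch, Smad1, Smad5 and Smad9 on the BMP branch. These bind Smad4 and act on target genes together with coactivators that include p300, while the inhibitory Smad6 and Smad7 are induced by the pathway and feed back on it. In the heart, the BMP branch is needed for myocardial development, and the TGF-beta branch is known for its part in fibrosis.

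Doxorubicin lowered most of the signalling genes with either siRNA, and the siRNA lowered 1 of them. In NS cells, 6 of the 9 fell at 8 h, namely Smad1, Smad6, Smad7, Id1, Id2 and Id3, and none rose. In p300kd cells, 5 of the 9 fell, the same genes without Id2, and none rose. Over all genes, the shares that fell were 16.4% in NS cells and 17.5% in p300kd cells, and the shares that rose were 11.1% and 13.9% (27.5% and 31.4% in either direction). With the experiment as a fixed block in the model, 6 members fell and 1 rose with each siRNA, where 43.5% of all genes passed in NS cells and 45.8% in p300kd cells. Averaged over both times, the p300 siRNA lowered Tgfbi, and no other member passed the test. Of all genes, 1.25% passed in that comparison, 1.02% as lower. The call of Tgfbi was lost when some single arrays or experiments were left out. With the block, 3 members were lower on average, Tgfbi, Id1 and Id2, where 9.51% of all genes passed. A gene passed where its p-value from the limma model, adjusted by Benjamini-Hochberg over all 14506 genes, was under 0.05.

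The siRNA was checked first on its target. Ep300, which encodes p300, stood at 11.16, 11.01 and 11.14 (log2 intensity, experiments 1, 2 and 3) in NS cells at 0 h and at 10.41, 10.02 and 10.05 in p300kd cells, and the change averaged over both times was -0.93 ± 0.0894 (log2, SE; adjusted p = 0.00212). Taken across the 29214 probe sets, the medians of the 12 arrays ranged from 7.73 to 7.80 (log2). Among the 14506 genes tested, the 8 h arrays had lower medians than the 0 h arrays. Centring each array on its median moved the median change of these genes with Dox from 0.04 to 0.14 with either siRNA. All 10 cardiac myocyte markers lay above the median gene, as did 11 of 12 fibroblast, 8 of 8 smooth muscle and pericyte, 5 of 8 macrophage and leukocyte, and 1 of 8 endothelial markers. Of the lists, the smooth muscle genes Acta2, Tagln and Des are also made by neonatal myocytes. In such bulk RNA, fewer cells of a type and less RNA per cell cannot be told apart.

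Tgfb2 encodes the ligand TGF-beta 2. Its log2 intensity in NS cells was 12.50, 12.63 and 12.05 in experiments 1, 2 and 3 at 0 h and 12.40, 12.47 and 11.91 at 8 h. In p300kd cells it was 12.59, 12.34 and 12.25 at 0 h and 12.57, 12.19 and 11.80 at 8 h. The groups overlapped throughout, and experiment 3 lay lowest in each group, on average 0.31 below the group means. Its change with Dox was -0.13 in NS cells (log2; 95% interval -0.57 to 0.30; adjusted p = 0.673) and -0.20 in p300kd cells (-0.64 to 0.23; adjusted p = 0.474). With the siRNA it was -0.04 on average (-0.35 to 0.27), so that the interval leaves room for changes of either sign.

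Smad1, the receptor-regulated SMAD of the BMP branch, fell with Dox by a modest and even amount. It stood at 10.26, 10.26 and 10.04 in NS cells at 0 h and at 9.87, 9.88 and 9.67 at 8 h (log2 intensity, experiments 1 to 3). With the p300 siRNA it went from 10.35, 10.26 and 10.15 to 9.98, 9.90 and 9.85. All 8 h arrays lay below all 0 h arrays of the same siRNA, as they did for 21.2% of all genes in NS cells and 21.6% in p300kd cells. The change was -0.38 ± 0.0941 in NS cells (log2, SE; 1.30-fold; adjusted p = 0.00960) and -0.34 in p300kd cells (1.27-fold; adjusted p = 0.0140), and the difference within each of the 6 experiment pairs lay between -0.38 and -0.30. Without experiment 2, with 8 arrays left, neither passed (adjusted p = 0.117 and 0.146). In p300kd cells the call was also lost when each array was centred on its median (-0.24, adjusted p = 0.0511), without the p300kd 0 h array of experiment 1 (0.0577) or without the p300kd 8 h array of experiment 3 (0.0557).

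Smad3, the corresponding SMAD of the TGF-beta branch, passed in no comparison. Its log2 intensity was 9.62, 9.72 and 9.90 in NS cells at 0 h and 9.60, 9.61 and 9.61 at 8 h, and in p300kd cells 9.71, 9.50 and 9.64 at 0 h and 9.55, 9.18 and 9.46 at 8 h. In NS cells the 8 h arrays lay just below the 0 h arrays, and at 8 h the p300kd arrays lay below the NS arrays, each without overlap. The change with Dox was -0.14 in NS cells (log2; 95% interval -0.37 to 0.09; adjusted p = 0.366) and -0.22 in p300kd cells (-0.45 to 0.01; adjusted p = 0.139; 0.0489 with the experiment as a fixed block, which passes, and 0.0617 as a random block, which does not). With the siRNA at 8 h it was -0.21 (-0.44 to 0.02; adjusted p = 0.665). For comparison, 6.29% of all genes lay lower without overlap with the siRNA at 8 h.

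Of the 9 genes, the inhibitory SMADs had the largest estimated changes with Dox. Smad6, which acts chiefly against BMP receptors and Smad1, stood at 10.74, 10.92 and 10.63 in NS cells at 0 h and at 9.53, 9.42 and 9.39 at 8 h. The p300kd values were 10.80, 10.79 and 10.61 at 0 h and 9.66, 9.27 and 8.98 at 8 h. Every untreated array lay above every treated one. The fall left 40.2% of the untreated level in NS cells (log2 change -1.31 ± 0.142, SE; 2.49-fold; adjusted p = 3.08e-05) and 37.1% in p300kd cells (-1.43; 2.69-fold; adjusted p = 1.38e-05). By size of change this placed Smad6 within the top 0.572% and 0.483% of all genes. The p300kd 8 h arrays were spread more widely (SD 0.337) than the NS 8 h arrays (SD 0.0734).

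Smad7, which competes with receptor-regulated SMADs at the receptors of both branches, fell as well. It stood at 9.11, 9.17 and 8.92 in NS cells at 0 h and at 8.55, 8.37 and 8.38 at 8 h. In p300kd cells it went from 9.15, 9.02 and 9.05 to 8.55, 8.43 and 8.21, again without overlap. The change was -0.63 ± 0.102 in NS cells (log2, SE; 1.55-fold; adjusted p = 0.000584) and -0.68 in p300kd cells (1.60-fold; adjusted p = 0.000295). Neither inhibitory SMAD passed with the siRNA: averaged over both times, the 95% interval ran from -0.30 to 0.13 for Smad6 and from -0.17 to 0.14 for Smad7. Both lay lower at 8 h in all 6 experiment pairs.

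**Figure D1:**
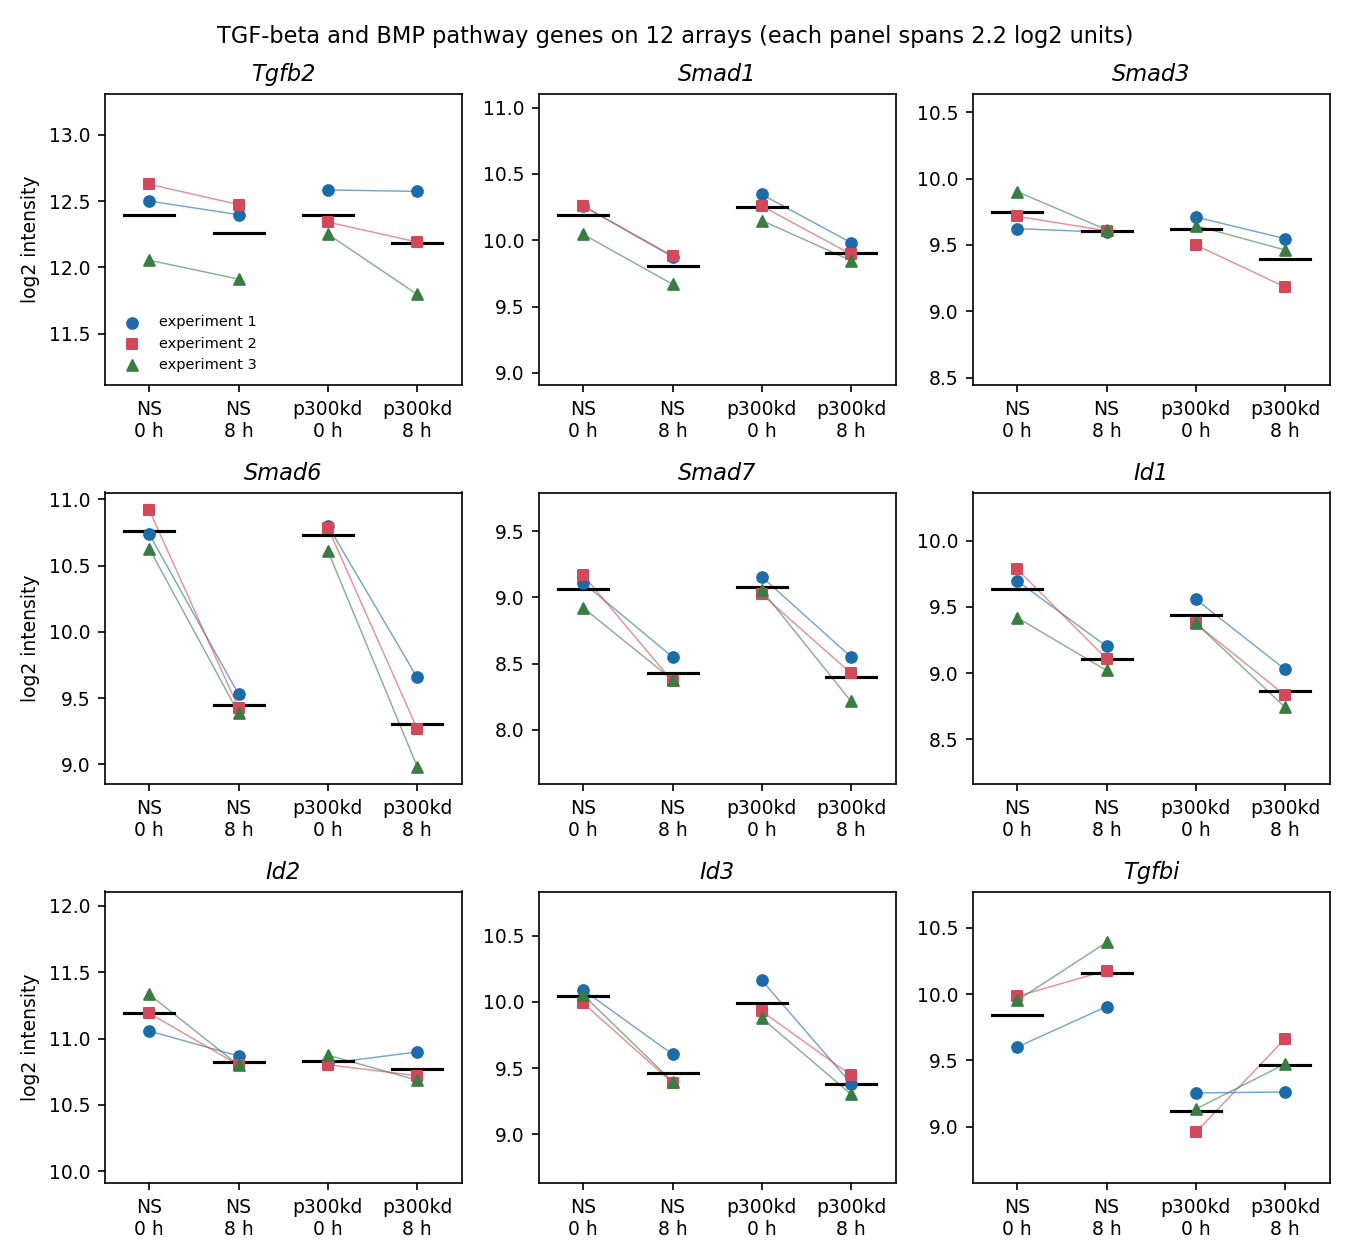
Log2 intensity of the 9 genes on each of the 12 arrays, by group (NS or p300kd siRNA, 0 or 8 h of Dox); symbols are arrays, thin lines join the arrays of an experiment with the same siRNA, and black bars are group means. Smad6, Smad7, Id1 and Id3 lie lower at 8 h with either siRNA, Id2 is highest in NS cells at 0 h, and Tgfbi lies lower in p300kd than in NS cells at both times.

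The Id genes encode helix-loop-helix proteins without a DNA-binding region, which take up E proteins and so keep them off DNA, and their transcription is a standard readout of BMP signalling. Id1 stood at 9.70, 9.78 and 9.42 in NS cells at 0 h and at 9.20, 9.11 and 9.02 at 8 h, and in p300kd cells at 9.56, 9.37 and 9.38 at 0 h and at 9.03, 8.83 and 8.74 at 8 h. With Dox it fell 1.44-fold in NS cells (log2 change -0.52 ± 0.111, SE; adjusted p = 0.00382) and 1.48-fold in p300kd cells (-0.57; adjusted p = 0.00185). Treated and untreated arrays did not overlap with either siRNA. The call in NS cells was lost without experiment 2 (-0.45, adjusted p = 0.105). The p300kd mean was the lower at both times, by 0.22 ± 0.0785 on average (log2, SE; lower in 3 of 3 experiments); this did not pass (adjusted p = 0.241) but did with the experiment as a block (0.0195).

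Id3 behaved much as Id1 did with Dox. It stood at 10.09, 9.99 and 10.05 in NS cells at 0 h and at 9.60, 9.39 and 9.40 at 8 h. The p300kd arrays gave 10.16, 9.93 and 9.88 at 0 h and 9.38, 9.45 and 9.30 at 8 h. Every treated array lay below every untreated one. The fall was 1.49-fold in NS cells (log2 change -0.58 ± 0.0953, SE; adjusted p = 0.000684) and 1.53-fold in p300kd cells (-0.61; adjusted p = 0.000387). With the siRNA the average change of Id3 was -0.07 (95% interval -0.22 to 0.08).

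Id2 had a different pattern, with 1 group apart from the other 3. It stood at 11.06, 11.19 and 11.33 in NS cells at 0 h, and at 10.87, 10.80 and 10.80 in NS cells at 8 h. In p300kd cells it stood at 10.81, 10.80 and 10.88 before the drug and at 10.90, 10.72 and 10.69 after it. The untreated NS arrays were all higher than the other 9. Id2 fell 1.29-fold with Dox in NS cells (log2 change -0.37 ± 0.0853, SE; adjusted p = 0.00616), a call lost without experiment 2 (-0.36, adjusted p = 0.113) or experiment 3 (-0.29, 0.119). In p300kd cells its change with Dox was -0.06 (95% interval -0.25 to 0.12; adjusted p = 0.621). With the siRNA at 0 h it stood at 77.7% of its NS level (log2 change -0.36, lower in 3 of 3 experiments, with no overlap, as for 6.82% of all genes), which did not pass (adjusted p = 0.246) but did with the experiment as a block (0.0166). At 8 h that difference was -0.05 (-0.24 to 0.13), and averaged over both times it was -0.21 (adjusted p = 0.132, and 0.0212 with the block). The difference between the drug responses, which tests the contrast of these patterns directly, was 0.31 ± 0.121 (log2, SE; 95% interval 0.05 to 0.57), with 0.27, 0.31 and 0.34 in experiments 1, 2 and 3. Its unadjusted p from limma was 0.0242 and its adjusted p 1.00, so a difference in response was not shown. The Dox comparison in NS cells and the siRNA comparison at 0 h both rest on the same 3 untreated NS arrays.

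The upstream sequences of Smad7 and of the 3 Id genes are shown because these genes fell with Dox in NS cells and because Smad7 alone among them holds a motif that was searched. Smad1 and Smad6 fell there too and are not shown. Smad1 held none of the motifs, and no promoter window was matched for Smad6. The sequences shown come from RefSeq (GRCr8), are written 5′ to 3′ on the gene's strand and end at the last base before the annotated gene. Capitals mark GGCGCC, a GC-rich SMAD-binding motif. The stretches lie at chr18:71263258-71263507 (Smad7, plus strand), chr3:161671314-161671524 (Id1, plus strand), chr6:47470996-47471245 (Id2, minus strand) and chr5:153656041-153656252 (Id3, plus strand).
Smad7: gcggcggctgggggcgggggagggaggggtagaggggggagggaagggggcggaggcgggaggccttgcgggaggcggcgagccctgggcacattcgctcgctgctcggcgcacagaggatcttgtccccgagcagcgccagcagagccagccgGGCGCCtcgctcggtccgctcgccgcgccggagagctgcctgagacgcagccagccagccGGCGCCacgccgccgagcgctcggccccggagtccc
Id1: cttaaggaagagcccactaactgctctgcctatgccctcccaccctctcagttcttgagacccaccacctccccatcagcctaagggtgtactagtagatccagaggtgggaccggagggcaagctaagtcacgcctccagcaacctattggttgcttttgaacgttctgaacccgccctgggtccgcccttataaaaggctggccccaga
Id2: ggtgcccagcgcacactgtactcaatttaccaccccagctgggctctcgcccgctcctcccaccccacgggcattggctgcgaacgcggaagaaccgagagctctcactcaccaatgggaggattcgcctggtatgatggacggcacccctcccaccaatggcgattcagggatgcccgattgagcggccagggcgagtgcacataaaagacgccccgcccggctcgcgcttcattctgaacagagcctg
Id3: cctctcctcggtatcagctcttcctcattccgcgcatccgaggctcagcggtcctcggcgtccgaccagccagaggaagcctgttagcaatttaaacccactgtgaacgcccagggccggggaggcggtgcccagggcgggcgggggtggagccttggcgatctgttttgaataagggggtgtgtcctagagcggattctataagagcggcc

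RefSeq promoter windows were matched for 8 of the 9 genes, and the first 250 bases of each, which precede the transcript start that the RefSeq table uses, were searched on both strands for GGCGCC, GTCTAGAC and CAGACA, SMAD-binding motifs of which none contains another. That start is the outer end of the annotated gene for Smad3, Smad7 and Id2. For the others it lies further in, so that 112 of the bases searched for Smad1, 39 for Id1, 38 for Id3, 121 for Tgfbi and all 250 for Tgfb2 are within the annotated gene. Smad7 held GGCGCC at 96 to 91 and at 36 to 31 bases before its start. Tgfbi held it at 112 to 107 bases before the start used, which is within the annotated gene. Over all 33469 promoter windows, 8.69% held GGCGCC in these 250 bases, 0.173% GTCTAGAC and 17.2% CAGACA. None of the 3 motifs was found in the bases searched for Id1, Id2, Id3, Smad1, Smad3 or Tgfb2, although Smad3 held GGCGCC 17 to 22 bases after its start. A match here is a match of letters only.

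Tgfbi encodes a secreted matrix protein that TGF-beta induces and that binds collagens and integrins. It was the member that moved most with the siRNA. Its log2 intensity was 9.60, 9.98 and 9.95 in NS cells at 0 h and 9.25, 8.96 and 9.13 in p300kd cells. At 8 h it was 9.91, 10.18 and 10.39 in NS cells and 9.26, 9.66 and 9.47 in p300kd cells. The p300kd arrays lay below the NS arrays at each time, without overlap, and averaged over both times 61.1% of the NS level was left (log2 change -0.71 ± 0.105, SE; 1.64-fold; adjusted p = 0.0166). Of all genes, 1.25% passed in that comparison, 1.02% as lower. At either time alone Tgfbi did not pass (-0.73 at 0 h, adjusted p = 0.190, but 0.0198 without experiment 1; -0.69 at 8 h, adjusted p = 0.227), but did with the experiment as a block (0.00466 and 0.00656). The averaged call was lost without the NS 8 h array of experiment 2 (adjusted p = 0.0520), without the p300kd 0 h array of experiment 2 (0.0588), and without experiment 2 (0.409) or experiment 3 (0.313) as a whole, with changes between -0.71 and -0.63.

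With Dox, Tgfbi was the 1 member with higher means at 8 h. The change was 0.31 in NS cells (log2; 95% interval -0.01 to 0.63; adjusted p = 0.140) and 0.35 in p300kd cells (0.03 to 0.67; adjusted p = 0.0904), higher in 6 of 6 experiment pairs, though by 0.01 in experiment 1 of p300kd cells. Neither passed. Both did with the experiment as a fixed block (0.0385 and 0.0204), but as a random block it was p300kd cells alone (0.0323) and not NS cells (0.0574). Both also passed when each array was centred on its median (0.41, adjusted p = 0.0388, and 0.45, adjusted p = 0.0235). In p300kd cells it passed without experiment 1 (0.52, adjusted p = 0.00716) or without the p300kd 8 h array of that experiment (0.45, 0.0414).

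Fibroblasts and macrophages also make the Tgfbi protein, and some of their markers passed with the siRNA too. The summed linear intensity of 8 macrophage and leukocyte markers was 10043 to 12250 in NS cells and 6722 to 10140 in p300kd cells at 0 h, and 10030 to 12672 against 7954 to 10036 at 8 h. Averaged over both times, 3 of the 8 fell, as did 1.02% of all genes: Ptprc by 0.40, Csf1r by 0.46 and Tyrobp by 0.43 (log2). For 12 fibroblast markers the sums were 45249 to 49357 against 38347 to 46285 at 0 h and 44198 to 48526 against 38544 to 45553 at 8 h, and 1 of the 12 fell, Fbln1 by 0.34. These calls were lost when single arrays of experiment 2 or 3 were left out. Of 8 smooth muscle and pericyte markers 1 fell, Cspg4 by 0.37, a call lost without any of several single arrays. The sums of each of these lists overlapped between the siRNAs at both times, those of the macrophage and leukocyte list only at the edges of their ranges. The median change averaged over both times was -0.34 for the macrophage and leukocyte, -0.17 for the fibroblast and -0.008 for the smooth muscle and pericyte markers (log2). Over all genes it was 0.006. With the experiment as a block, 5 of 8 macrophage and 6 of 12 fibroblast markers fell, and 2 smooth muscle and pericyte markers fell and 1 rose. Of all genes, 9.51% passed with the block, in either direction. The part of these cells in the change of Tgfbi was not tested. None of the 10 cardiac myocyte markers passed with the siRNA averaged over both times.

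Counted over all 9 genes, none passed with the siRNA at 0 h (0.0207% of all genes did) or at 8 h (0.0483%). At an unadjusted limma p under 0.05 there were 2 members at each time, Id2 and Tgfbi at 0 h and Id1 and Tgfbi at 8 h, against 6.95% and 7.96% of all genes. With the experiment as a block, 2 members passed at 0 h, 1 at 8 h and 3 on average, all lower, where 2.69%, 3.14% and 9.51% of all genes passed. For the difference between the drug responses, none of the 9 and none of the 14506 genes passed in limma, with or without the block, and at an unadjusted p under 0.05 there were 1 member and 1.57% of genes. For that difference the widest of the members' intervals was that of Tgfb2 (log2, -0.69 to 0.55), and that of Smad6 ran from -0.55 to 0.32. The median change of the 9 was -0.38 with Dox in NS cells and -0.34 in p300kd cells, against 0.04 over all genes in both, and -0.09 with the siRNA on average, against 0.01. Since the 9 were chosen with earlier results known, these medians do not test the pathway as a set.

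**Figure D2:**
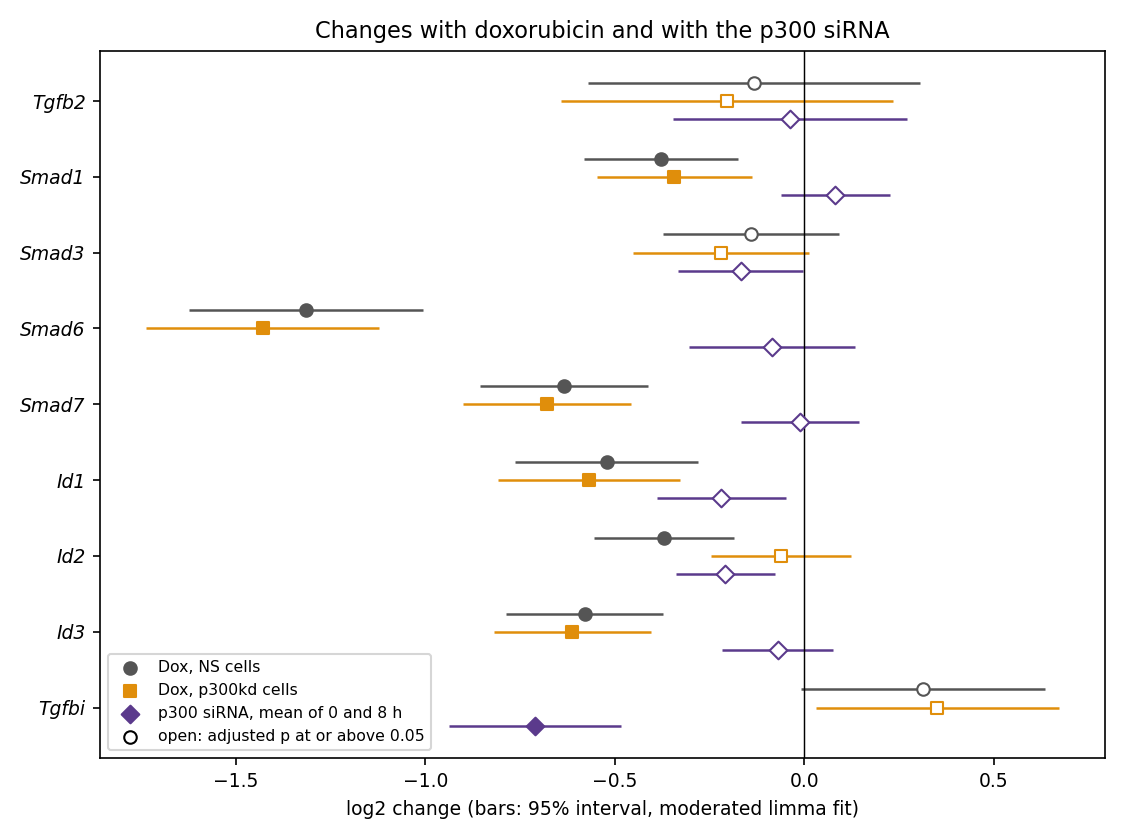
Log2 change of each of the 9 genes (x axis) with Dox in NS cells (circles), with Dox in p300kd cells (squares) and with the p300 siRNA averaged over both times (diamonds), with 95% intervals from limma; filled symbols passed at an adjusted p under 0.05. Smad6 lies farthest to the left with Dox (-1.31 and -1.43), Id2 is filled in NS cells and open in p300kd cells, and Tgfbi is the 1 filled diamond (-0.71).

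The centring of the arrays bears on all counts with Dox. With each array centred on its median, the median change of all genes moved from 0.04 to 0.14 in NS cells and the passing genes from 1617 higher and 2375 lower to 3800 higher and 1832 lower. In p300kd cells they moved from 2017 higher and 2543 lower to 4344 higher and 1991 lower. Among the 9 the split became 1 higher and 6 lower in NS cells and 1 higher and 4 lower in p300kd cells, the 1 higher being Tgfbi. Some markers of other cell types passed with Dox too, beside 16.4% of all genes lower and 11.1% higher in NS cells. In p300kd cells these shares were 17.5% and 13.9%. For endothelium the summed linear intensity was 2126 to 2239 at 0 h and 1785 to 1956 at 8 h in NS cells, 1925 to 2164 and 1748 to 1804 in p300kd cells, and 2 of 8 fell, Kdr and Cdh5. Of 8 smooth muscle and pericyte markers 2 fell with each siRNA, Pdgfrb (-0.85 and -0.93, log2) and Cspg4 (-1.09 and -1.12), while the sums overlapped, at 49373 to 60435 and 49230 to 58409 in NS cells. Among the macrophage and leukocyte markers Csf1r fell (-0.54 and -0.66), with Ptprc in p300kd cells (-0.37). Among the fibroblast markers Pdgfra fell (-0.79 and -0.88) and Thy1 rose (0.49 and 0.51), with Fap in p300kd cells (0.40). Of the 10 cardiac myocyte markers, none passed with Dox. The part of these cell types in the falls of the SMAD and Id genes was not tested.

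Of the other genes of the pathway, most did not pass with Dox, and of those that did more fell than rose. Of 67 listed genes 60 were measured. In NS cells 19 fell and 2 rose (16.4% and 11.1% of all genes did), and in p300kd cells 21 fell and 3 rose (17.5% and 13.9%), with median changes of -0.08 and -0.19. Centred on the array medians, the splits were 16 lower and 6 higher, and 19 lower and 7 higher. Over all genes, the centred splits were 1832 lower and 3800 higher in NS cells, and 1991 and 4344 in p300kd cells. With the experiment as a block, 24 fell and 6 rose in NS cells, where 3184 of the 14506 genes fell and 3133 rose. In p300kd cells 31 fell and 9 rose with the block, where 22.8% of all genes fell and 22.9% rose. Among 12 ligands, Tgfb3 fell (-0.59 in NS and -0.74 in p300kd cells, log2) and Inhbb, a subunit of activin B, rose (0.30 and 0.34). The calls of Tgfb3 were lost without experiment 2, and that of Inhbb in NS cells held in 16 of 22 other settings. Among 11 receptors, 5 fell with each siRNA. Of these, Acvr1b, the type I receptor of activin, fell most (-1.52 and -1.21; adjusted p = 5.11e-06 and 2.13e-05), followed by Bmpr1a, a type I receptor of BMPs (-1.07 and -1.04).

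Of the other SMADs, Smad9 fell 2.46-fold in NS cells (log2 change -1.30, adjusted p = 3.28e-06) and by a like amount in p300kd cells (-1.34, adjusted p = 2.15e-06). Smad4, the shared partner of both branches, fell less (-0.42 and -0.35; adjusted p = 0.000958 and 0.00240), and in p300kd cells not without experiment 2 (adjusted p = 0.0923). Smad2 did not pass (-0.26 and -0.23; adjusted p = 0.0574 and 0.0799), but did in both with the experiment as a block (0.0197 and 0.0334). Smad5 changed by -0.16 in NS cells (adjusted p = 0.139) and fell by 0.23 in p300kd cells (adjusted p = 0.0313), a call lost in 11 of 22 other settings. The falls thus took in Smad1, Smad4, Smad6, Smad7 and Smad9 with either siRNA.

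The counts by role that follow stand beside 16.4% of all genes lower and 11.1% higher in NS cells. In p300kd cells these shares were 17.5% and 13.9%. With the block, 3184 of the 14506 genes fell and 3133 rose in NS cells, and 22.8% fell and 22.9% rose in p300kd cells. The 10 extracellular regulators had positive medians (0.24 and 0.25, log2), with 1 that rose and 1 that fell with each siRNA. With the block, 5 and 6 of them were higher against 2 lower. Of these, Chrd, which encodes the BMP-binding antagonist chordin, rose (0.99 and 0.92, log2) and the decoy receptor gene Bambi fell by 1.00 and 0.73. Of 9 intracellular regulators, 4 fell in NS cells and 5 in p300kd cells, and none rose. Among them the repressor gene Tgif2 fell (-0.98 with each siRNA), as did the ubiquitin ligase genes Nedd4l (-0.80 and -0.76) and Smurf1 (-0.68 and -0.66). Among the other target genes, Ccn2, which encodes a matrix-associated growth factor, fell 2.53-fold and 2.89-fold, and the BMP target Atoh8 fell by 1.06 and 1.18 (log2). Id4 changed by 0.07 in NS cells (adjusted p = 0.532) and rose by 0.33 in p300kd cells (adjusted p = 0.00455), a call lost without experiment 2 or experiment 3. All 3 genes of E proteins, the partners that Id proteins bind, fell: Tcf3 (-0.38 and -0.59), Tcf4 (-0.44 and -0.48) and Tcf12 (-0.32 and -0.47). The calls in NS cells held in 17, 18 and 9 of 22 other settings for Tcf3, Tcf4 and Tcf12, and in p300kd cells in 20 for Tcf4 and 21 for Tcf12.

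With the siRNA, none of the 60 passed at 0 h, at 8 h, on average or in the difference between drug responses. On average, 10 had an unadjusted limma p under 0.05, against 12.7% of all genes. With the experiment as a block 12 fell and 2 rose, where 912 of the 14506 genes fell and 468 rose. Those lower with the block included Postn, which encodes the matrix protein periostin and is a fibroblast marker (-0.49; adjusted p = 0.122, and 0.000476 with the block), Acvr1b (-0.32; 0.125, and 0.00603) and Atoh8 (-0.30; 0.0645, and 0.00414).

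**Figure D3:**
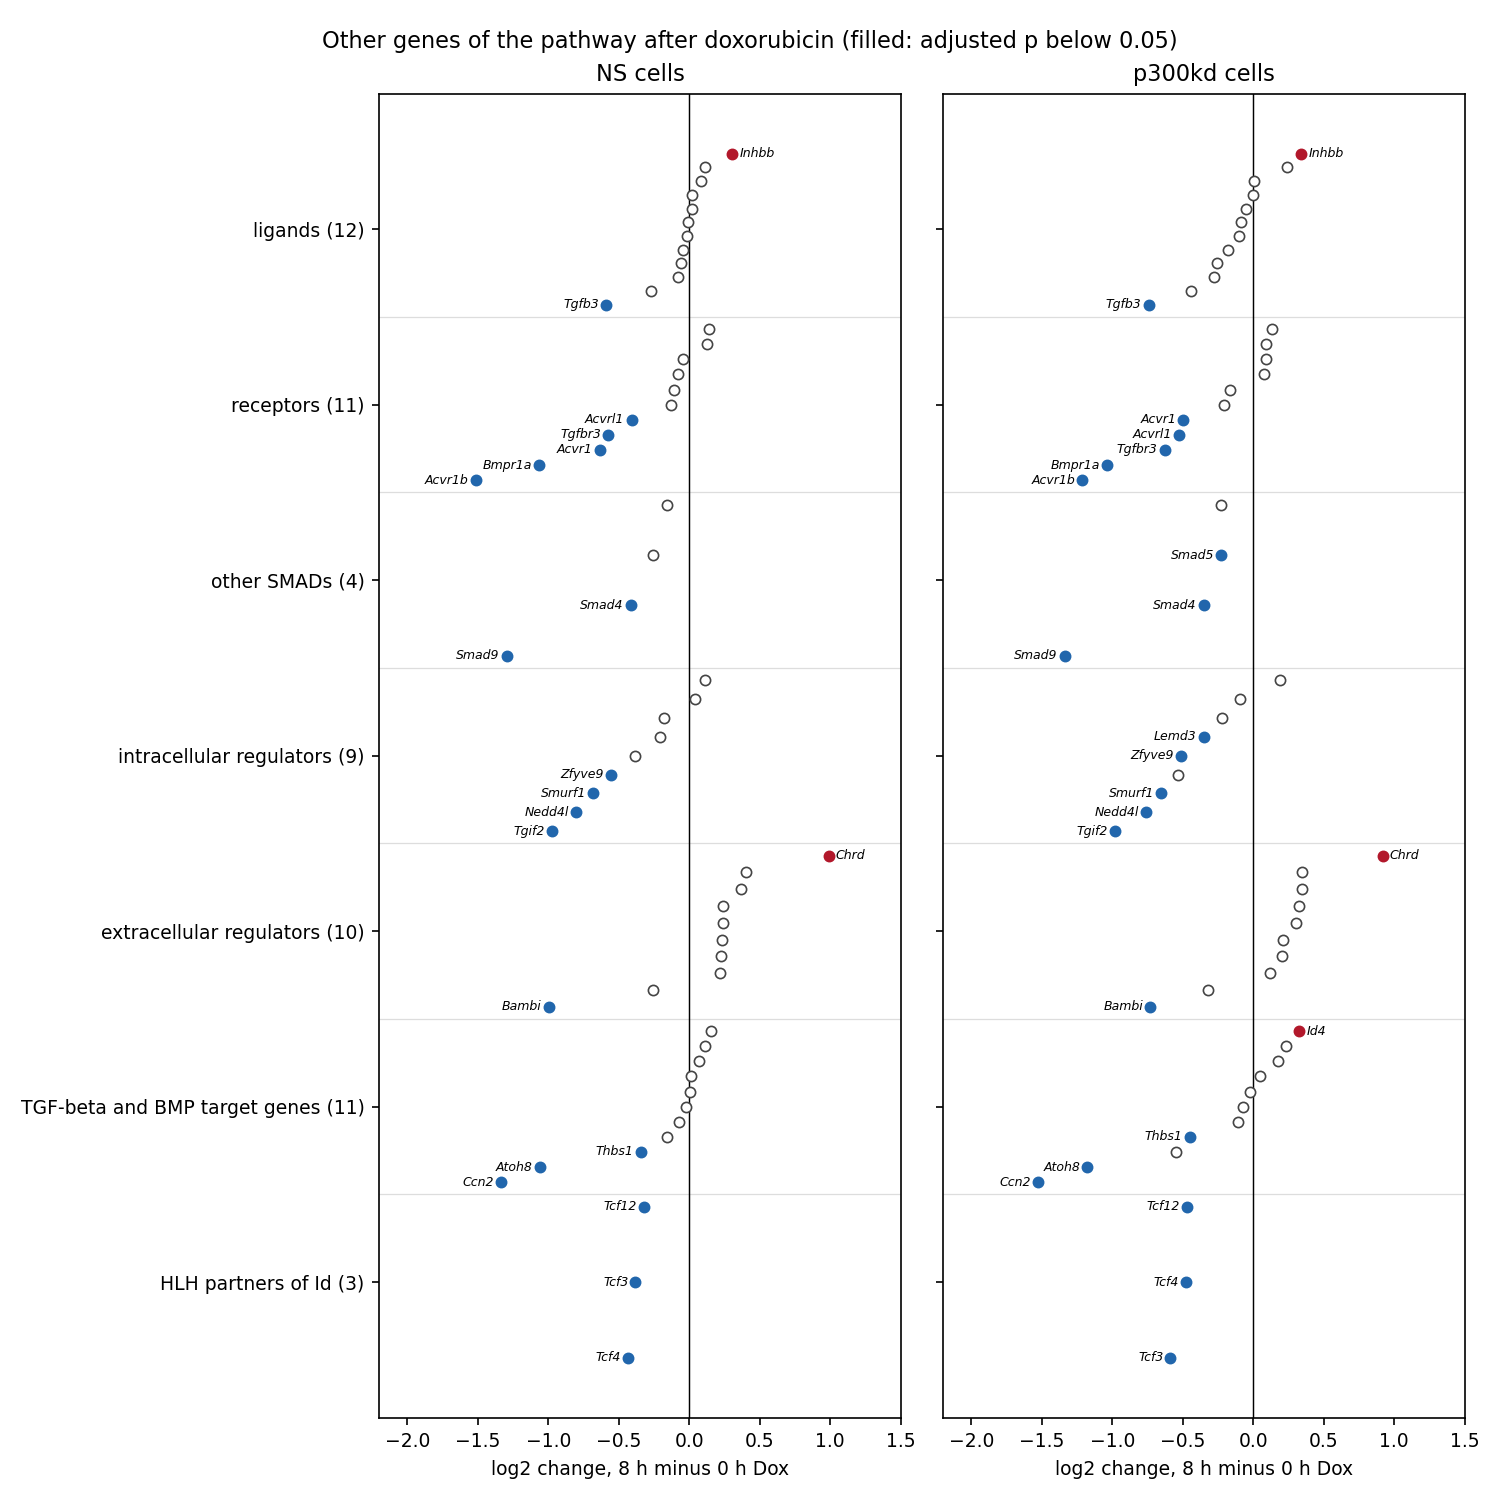
Log2 change (x axis) after 8 h of Dox in NS cells (left) and in p300kd cells (right) for the 60 other measured genes of the pathway, grouped by role; each circle is a gene, filled and named where its adjusted p was under 0.05. Acvr1b (-1.52 and -1.21), Smad9 (-1.30 and -1.34) and Ccn2 lie farthest to the left, and Chrd (0.99 and 0.92) farthest to the right.

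The genes with the most similar patterns were found by Pearson's r of log2 values over the 12 arrays, which share the drug and siRNA groups, among genes above the median gene. For Smad6 they were Zfp207 (r = 0.993), Xbp1 (0.993) and Nuak1 (0.992), and for Smad7 they were Ccn2 (0.990), Vps37c (0.988) and Smad6 (0.987). Id1 came closest to Dab2 (0.983) and Id3 to Rin3 (0.981), while the closest gene to Smad1 was the ligand Tgfb3 (0.966). The nearest patterns were less alike for Id2 (Slc22a23, 0.916) and Smad3 (Tmem164, 0.909). Tgfb2 was closest to Csrp1 (0.978) and Tgfbi to Gpd1 (0.967).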

How the data were processed

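RNA of 12 rat cardiac myocyte cultures was measured on Affymetrix whole-transcript arrays. The deposited values are linear intensity values (8.05 to 25315) from Expression Console 1.1 with RMA, per the submitters' processing notes; how they became linear is not given in the sources used here. Log2 of the deposited values was taken here, with no filter. Of 29214 probe sets, 15310 had 1 gene symbol and 323 several; the brightest per symbol left 14506 genes, 14480 of them with their Entrez identifier in a RefSeq table (GRCr8). The 4 group means were estimated by limma 3.58.1 under R 4.3.3 (lmFit, then eBayes with trended variance, residual degrees of freedom 8, two-sided), with Benjamini-Hochberg adjustment over all genes in each of 6 comparisons. The fit was also run on simulated data with changes in the NS 8 h arrays alone. Those data held no likeness between arrays of an experiment, so they do not test the fit without a block in its presence. Log2 changes are treated minus untreated and p300kd minus NS. Precision is limited by how many arrays there are: the median SE of a change was 0.0951. Plots used matplotlib 3.10.9 under Python 3.11.15.

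The replicate numbers pair arrays: for 18 pairs of same-numbered arrays from different groups, deviations from group means had a median r across genes of 0.504 (lowest 0.172), other pairs -0.271, and every one of the 12 arrays came closest to one of its own number. That number is called the experiment, and the fit with it as a block is an alternative (block values are those of a fixed term unless a random one is named). The labels call the samples biological replicates; whether cells of an experiment came from pooled animals is not given in the sources used here.

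The members, the pathway list and the marker lists were chosen with earlier results of these data known. The members, the other SMADs and the E proteins were always named; of the rest of the pathway, up to 3 passing genes per direction, role and comparison could be named, by size of change, and 1 that did not pass. The 22 other settings were the block as a fixed or random term, only the groups compared, dim genes left out, centred arrays, no variance trend, the mean of a gene's probe sets, and each array or experiment left out.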

Additional observations from a re-analysis of the deposited data

How the results depend on the processing

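Smad6, Smad7 and Id3 kept their calls with Dox in both siRNA groups under all 22 other settings, as did Id1 in p300kd cells, and no called change of the 9 genes reversed. With the experiment (replicate number) as a fixed block, the members that passed rose to 2 with the siRNA at 0 h, 1 at 8 h and 3 on average, and the pathway genes to 40 with Dox in p300kd cells and to 4, 6 and 14 with the siRNA at 0 h, at 8 h and on average; as a random block the siRNA counts of members were the same, and the pathway genes 38 with Dox in p300kd cells, 1 at 0 h and 6 on average. Apart from the calls given with a block value above and those within the listed pathway counts, the block changed no other call of the 9 genes. With the fixed block, 45.8% of all genes passed with Dox in p300kd cells, and 2.69%, 3.14% and 9.51% with the siRNA at 0 h, at 8 h and on average. Leaving out an array or an experiment gave 3 to 6 members with Dox in NS cells, 4 to 6 in p300kd cells, 0 to 1 with the siRNA at 0 h and 0 to 1 on average, and 13 to 22, 14 to 32 and 0 to 7 pathway genes with Dox in NS cells, Dox in p300kd cells and the siRNA on average. With fewer arrays the fit has less to estimate the spread from. The counts of all genes with the random block or with arrays left out are not given here. Those counts of members and pathway genes therefore have no background beside them. Sign changes occurred in 66 cases, all of changes near 0 that did not pass. Centring the arrays turned Id2 with Dox in p300kd cells to 0.042 and Tgfb2 with the siRNA at 0 h to 0.0043. Leaving out an array or an experiment, these uncalled log2 changes ranged across 0. For the difference between the drug responses the ranges were Tgfb2 -0.27 to 0.12, Smad1 -0.034 to 0.11, Smad3 -0.17 to 0.027, Smad6 -0.29 to 0.044, Smad7 -0.17 to 0.080, Id1 -0.14 to 0.060, Id3 -0.11 to 0.099 and Tgfbi -0.20 to 0.21. For the siRNA at 0 h they were Tgfb2 -0.17 to 0.14, Smad1 -0.0076 to 0.11, Smad6 -0.094 to 0.051, Smad7 -0.061 to 0.089 and Id3 -0.14 to 0.0059, at 8 h Tgfb2 -0.27 to 0.12, Smad6 -0.32 to 0.016 and Smad7 -0.11 to 0.057, and on average Tgfb2 -0.13 to 0.085 and Smad7 -0.050 to 0.034. With Dox they were Tgfb2 in NS cells -0.30 to 0.042 and Id2 in p300kd cells -0.14 to 0.0018.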
